A study of Mus musculus with 2 samples.

Results

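The miR-26 family was examined in small RNA libraries of mouse liver. Its members were taken as every listed miRNA whose name begins with miR-26a or miR-26b. This gave 3 mature names of 197 named miRNAs, namely mmu-miR-26a-5p, mmu-miR-26b-5p and mmu-miR-26b-3p, written here without the species prefix. They occupied 2 of 168 named loci in replicate 1 and 4 of 187 in replicate 2. The libraries were made from total RNA of liver of wild-type C57BL/6 mice, 2 to 3 months old and fed ad libitum, and they form 1 group of 2 replicates. Both are labelled as controls and no treatment is named, so no contrast between conditions exists. The labels do not say whether the replicates are different animals. The p-values between them set each difference against counting error alone. They take in no spread between libraries, which may be technical.

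A miRNA is cut from a hairpin-shaped precursor that can release a mature strand from its 5′ side (5p) and one from its 3′ side (3p). The retained strand pairs with target mRNAs mainly through its seed, bases 2 to 8. The miR-26 hairpins lie in introns of the Ctdsp genes, which encode small phosphatases that act on the C-terminal domain of RNA polymerase II, so host gene and miRNA can be made from 1 primary transcript. The family is known for targeting Ezh2, a histone methyltransferase, and in liver for roles in growth control and insulin action.

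The mature sequences of the family are shown here because the paralogs and copies are told apart by few bases. They come from RefSeq (GRCm38.p6), where all 3 listed names were found, and capitals mark the seed.
miR-26a-5p: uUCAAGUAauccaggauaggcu
miR-26b-5p: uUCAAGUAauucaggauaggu
miR-26a-1-3p: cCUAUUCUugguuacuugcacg
miR-26a-2-3p: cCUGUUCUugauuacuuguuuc
miR-26b-3p: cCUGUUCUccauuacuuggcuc
The 5p arms share their seed. Over the 21 bases that both have, miR-26a-5p and miR-26b-5p were identical at 19, and the differences were C11U and C21U, with miR-26a-5p given first and positions counted from its 5′ end. The 3p arms are more diverged. The 3p arms of the 2 miR-26a hairpins were identical at 16 of 22 bases and differed at seed base A4G. miR-26a-2-3p and miR-26b-3p share their seed and were identical at 18 of 22 bases.

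The hairpins show which part of each precursor can identify its origin. Capitals mark both mature arms.
Mir26a-1: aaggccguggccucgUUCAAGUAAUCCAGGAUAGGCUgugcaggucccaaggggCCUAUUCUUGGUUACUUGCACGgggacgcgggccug
Mir26a-2: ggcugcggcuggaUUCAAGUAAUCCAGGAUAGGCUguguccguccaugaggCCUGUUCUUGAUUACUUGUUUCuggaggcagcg
Mir26b: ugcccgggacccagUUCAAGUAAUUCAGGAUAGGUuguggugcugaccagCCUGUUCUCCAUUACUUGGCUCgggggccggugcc
miR-26a-5p has 2 genomic copies in this table, and both carry the same 22 bases. Counted from the start of the 5p arm, the reference sequences of Mir26a-1 and Mir26a-2 first differ at base 26, past the end of the mature miRNA. A read of the 22-base form could therefore come from either copy. Among 1738 mature entries, the 3 at these hairpins were the ones with the seed of miR-26, under 2 names. An exact search of 141767 annotated GENCODE transcripts for miR-26a-5p and miR-26b-5p on both strands found 3 matches, each in its own miRNA gene. The whole genome sequence was not searched.

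All 3 hairpins lay on the plus strand, as their hosts do. Mir26a-1 lay at chr9:119031796-119031885 in Ctdspl, Mir26a-2 at chr10:126995530-126995613 in Ctdsp2, and Mir26b at chr1:74394310-74394394 in Ctdsp1. In the coding GENCODE transcript of Ctdspl with the longest genomic span, Mir26a-1 sat in intron 5, which spans 3283 bases. In that of Ctdsp2, Mir26a-2 also sat in intron 5, of 1946 bases, 241 bases before the next exon. In that of Ctdsp1, Mir26b sat in intron 4, of 564 bases, with 234 bases before it and 245 after it. The hosts differed widely in size, at 117546 bases for Ctdspl, 21259 for Ctdsp2 and 5777 for Ctdsp1. A pair of shorter annotated Ctdsp2 transcripts, a coding one and one with a retained intron, begin at position 126995613, the last base of the Mir26a-2 hairpin. The deposited annotation likewise called every miR-26 locus intronic in these hosts. Host mRNA was not measured in these small RNA libraries.

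**Figure D1:**
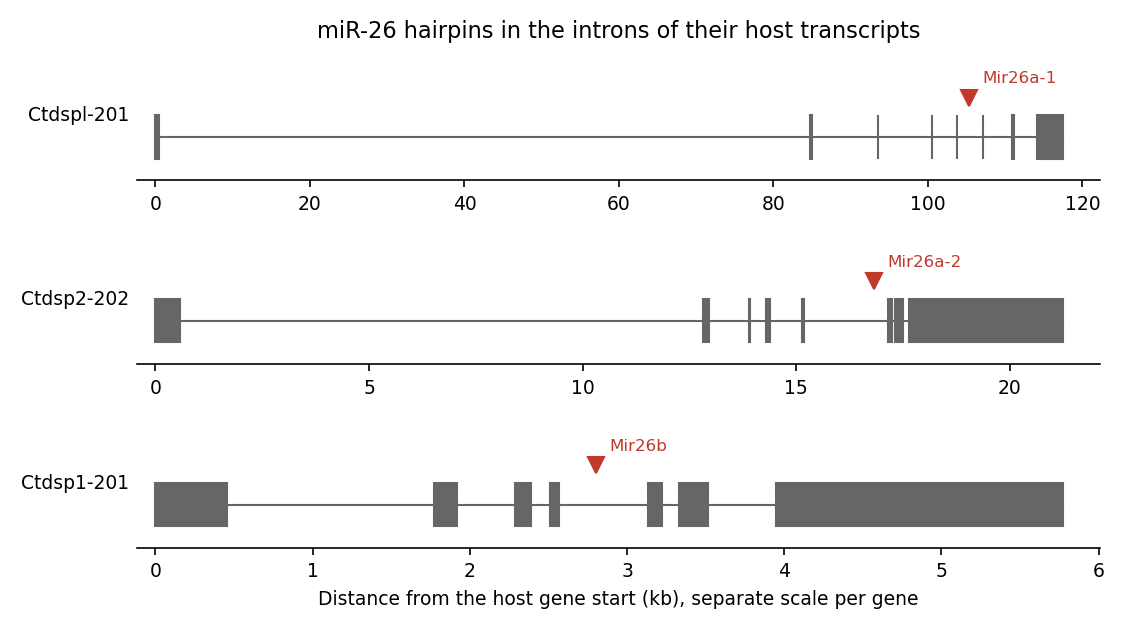
Each row draws the GENCODE coding transcript of a host gene with the longest genomic span, with exons as boxes and introns as lines, against the distance from the gene start in kb on a separate scale per gene. The triangle marks the miR-26 hairpin, which lies in intron 5 of Ctdspl and Ctdsp2 and intron 4 of Ctdsp1.

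Replicate 2 was the deeper library, with 538023 counts of named miRNAs against 306351 in replicate 1 when 1 locus, the highest, was used per name. Shares are of these totals. Their exact Clopper-Pearson 95% intervals cover counting error only. The hepatocyte miRNA miR-122-5p stood at 2.50% and 3.04%, and the 3 hepatocyte markers together at 4.33% and 4.65%. Markers of endothelial, immune, erythroid, stellate and biliary cells were each below 0.6% in both libraries, with 2 of 2, 2 of 6, 1 of 4, 4 of 5 and 1 of 5 markers listed in at least 1 of them. The listed ones included miR-150-5p of immune cells (0.311% and 0.197%), miR-200b-3p of biliary cells (0.0196% and 0.0303%) and miR-486b-5p of erythroid cells (14 counts in replicate 2). miR-142a-3p, miR-223-3p, miR-451a and miR-200a-3p were not listed, which sets no upper limit on them.

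By counts, miR-26a-5p ranked 3 among named miRNAs in both libraries. It had 19644 counts in replicate 1, or 6.41% of named miRNA counts (95% interval 6.33 to 6.50). In replicate 2 it had 32150 counts, or 5.98% (5.91 to 6.04), and the mean was 6.19% ± 0.309 (SD, n = 2). The 2 next above it were miR-22-3p at 33.8% ± 0.241 and miR-92a-3p at 11.1% ± 3.22. The 2 next below were miR-191-5p at 4.81% ± 0.135 and miR-30a-5p at 4.54% ± 0.668. The library values of miR-26a-5p overlapped with those of none of these 4.

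miR-26b-5p had far fewer counts and shared its place with several other miRNAs. It had 1578 counts in replicate 1, or 0.515% (0.490 to 0.541), at rank 23. In replicate 2 it had 1983 counts, or 0.369% (0.353 to 0.385), at rank 27. The mean of 0.442% ± 0.104 (SD, n = 2) placed it between miR-148a-3p (0.461% ± 7.28e-05) and miR-455-3p (0.449% ± 0.0518) above, and let-7g-5p (0.428% ± 0.104) and miR-23b-3p (0.413% ± 0.0174) below. Its library values overlapped with those of all 4, so this order did not exceed the spread between replicates.

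miR-26b-3p, the other strand of the same hairpin, was listed in replicate 2 only, with 1 count, or 0.000186% (4.71e-06 to 0.00104). The files list called loci only, so its absence from replicate 1 sets no upper limit there.

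**Figure D2:**
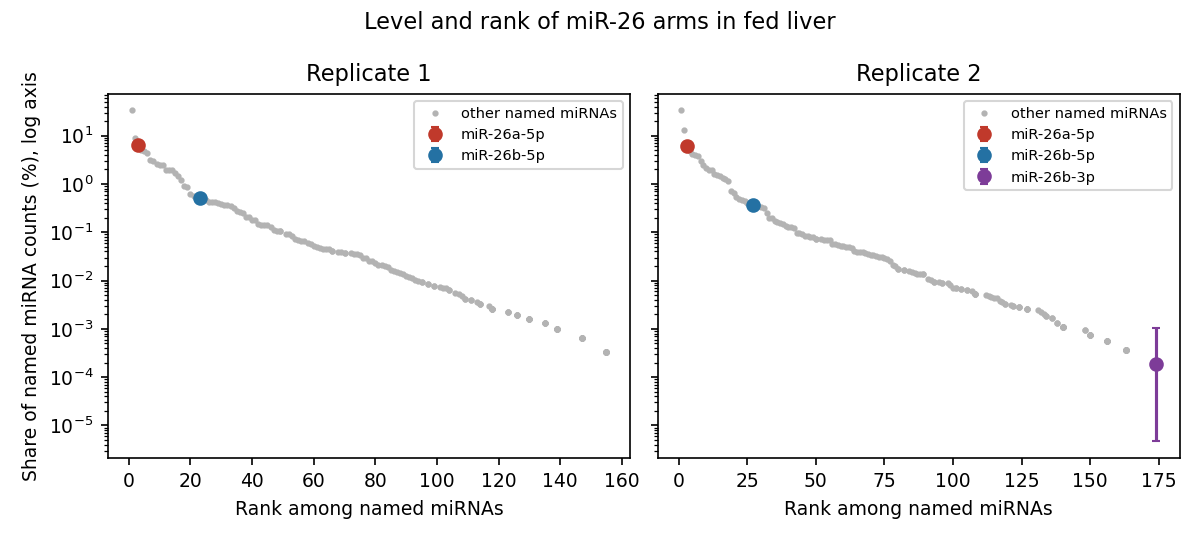
Share of named miRNA counts in percent (log axis) against rank, 1 panel per library, with exact 95% intervals on the miR-26 arms and other named miRNAs in grey. miR-26a-5p is at rank 3 in both panels, miR-26b-5p at ranks 23 and 27, and miR-26b-3p is near the bottom of replicate 2.

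Grouped by seed, the family ranked by counts among the leading seeds of both libraries. miR-26a-5p and miR-26b-5p together held 21222 counts in replicate 1, at rank 5 of 136 seeds. In replicate 2 they held 34133 counts, at rank 4 of 152 seeds. The seeds above them in replicate 1 were those of miR-22-3p, miR-30, let-7 and miR-92a-3p with its relatives. The let-7 seed took 9.76% of replicate 1 (rank 3) but 6.24% of replicate 2 (rank 5), just under the 6.34% of miR-26. The order of these 2 seeds was thus reversed. The seed of miR-92a-3p stood at rank 4 in replicate 1 and rank 2 in replicate 2. With miR-26b-3p included, the family took 6.93% of replicate 1 (6.84 to 7.02) and 6.34% of replicate 2 (6.28 to 6.41), a mean of 6.64% ± 0.412 (SD, n = 2).

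The paralogs had unequal counts, and the inequality differed between the libraries. Whether counts follow the amounts in the tissue was not tested. For each count of miR-26b-5p there were 12.4 counts of miR-26a-5p in replicate 1 (95% interval 11.8 to 13.1), while replicate 2 had 16.2 (15.5 to 17.0). The intervals did not overlap. The ratio was higher in replicate 2 by 0.38 on the log2 scale. A 2-sided Fisher's exact test between these libraries, which needs no scaling between them, gave p = 5.94e-14. This p takes in counting error alone, and no other pair of paralogs was tested this way. As a share of the 5p counts, miR-26b-5p made up 7.44% (7.09 to 7.80) and 5.81% (5.56 to 6.06). Over both libraries the ratio was 14.3 ± 2.66 (SD, n = 2). The listed miR-26b-5p was 20 bases long, 1 shorter than its RefSeq entry, and miR-26a-5p had its full 22.

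Read from a 2-sided exact binomial test over every miRNA that both libraries listed, with a minimum of 10 counts summed, at edgeR's TMM effective library sizes, the paralogs differed between libraries in opposite directions, which for miR-26a-5p turned with library totals. miR-26b-5p was lower in replicate 2, with a log2 ratio to replicate 1 of -0.32 (95% interval -0.42 to -0.22, adjusted p = 3.43e-10). miR-26a-5p was slightly higher, with 0.06 (0.04 to 0.09, adjusted p = 9.44e-06). Of the 131 miRNAs tested, 58 passed the adjusted p threshold of 0.05 (Benjamini-Hochberg), or 44.3%, of which 28 (21.4% of those tested) were higher in replicate 2 and 30 (22.9%) were lower. Among those with at least 1000 counts summed, 33 of 43 did, or 76.7%, so a call is usual at the depth of both arms. Both differences were below the median absolute log2 ratio of 0.35 over all tested miRNAs. For miR-26a-5p, 116 of 131 miRNAs had a larger absolute ratio, and for miR-26b-5p, 71 did.

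The direction for miR-26a-5p changed with how the libraries were scaled. When library totals replaced TMM, its log2 ratio was -0.10 (-0.13 to -0.08, adjusted p = 4.31e-14). In the same setting the median over all tested miRNAs moved from -0.02 to -0.19. With totals that leave out miR-92a-3p, whose share was 8.86% in replicate 1 and 13.4% in replicate 2, the ratio of miR-26a-5p was -0.028 and did not pass (adjusted p = 0.0708 in the exact binomial test). Measured from the median of all tested miRNAs, miR-26a-5p lay 0.03 to 0.10 above it and miR-26b-5p 0.28 to 0.35 below it in all 8 settings run. The nearest log2 ratios among miRNAs with at least 100 counts were those of miR-29a-3p (0.07) and miR-532-5p (0.07) for miR-26a-5p, and of miR-222-3p (-0.31) and let-7g-5p (-0.34) for miR-26b-5p.

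**Figure D3:**
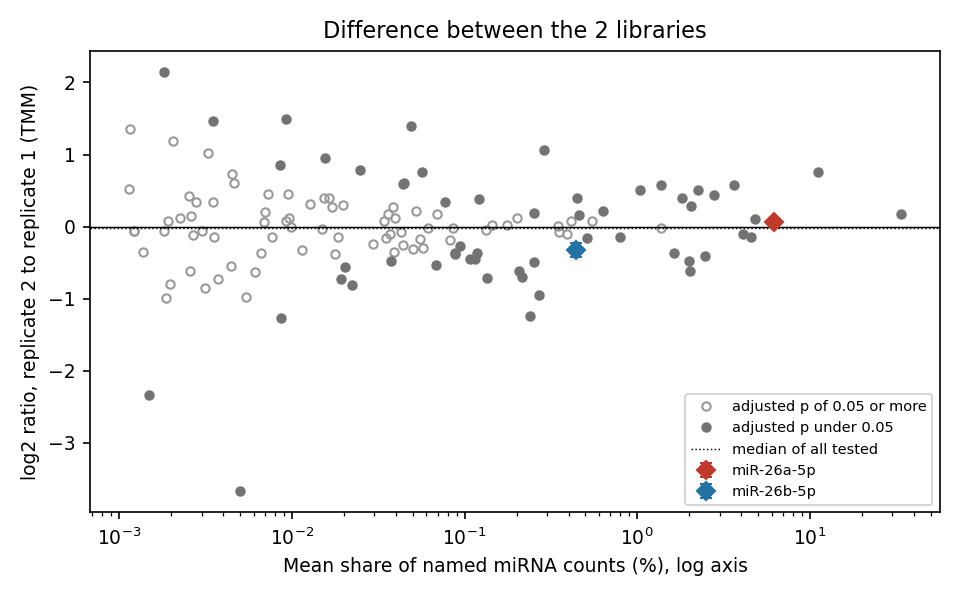
Log2 ratio of replicate 2 to replicate 1 at TMM effective library sizes against the mean share of named miRNA counts in percent (log axis), 1 point per tested miRNA, filled where the adjusted p was under 0.05. The miR-26 arms carry exact 95% intervals: miR-26a-5p lies at 0.06, close to the median of all tested miRNAs (dotted line), and miR-26b-5p at -0.32.

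The listed counts of the miR-26 hairpins lay almost wholly on the 5p strand. In replicate 2, where both arms of Mir26b were listed, 1983 of its counts were 5p and 1 was 3p, so 99.95% were 5p (95% interval 99.7 to 99.999). The 2-sided exact binomial test against equal shares gave a p too small for the software to represent. Across the 63 hairpins tested in that library 59 passed, or 93.7%, and 28, or 44.4%, passed with 5p dominant. In replicate 1 Mir26b had 1578 counts of 5p and no listed 3p arm, and no test was made. Neither miR-26a-1-3p nor miR-26a-2-3p was listed in either library, beside 19644 and 32150 counts of miR-26a-5p. A missing opposite arm was not particular to the family. Of 16 hairpins dominated by 5p with at least 1578 counts in replicate 1, 7 had no listed 3p arm. Of 17 with at least 1983 counts in replicate 2, 8 had none. These minimums are the counts of miR-26b-5p itself. The 7 include Mir26a-1 and Mir26b, and the 8 include Mir26a-1. Mir30d and Mirlet7a-1 were among the others in both libraries.

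Nearly all miR-26a-5p counts were assigned to the copy in Ctdspl. The 19644 counts of replicate 1 and 32150 of replicate 2 were listed at chr9:119031811-119031832, within Mir26a-1. The Ctdsp2 copy was listed in replicate 2 only, at chr10:126995543-126995568, with 42 counts, or 0.130% of both loci (0.0940 to 0.176). Scaled to replicate 1 this corresponds to 26.8 counts by TMM effective library sizes and 23.9 by library totals. The smallest count listed there was 1. Named loci with that count were arms whose opposite arm was listed, as the 5p arm of Mir107 was beside 563 counts of 3p. The Ctdsp2 copy was listed without an opposite arm. Among hairpins so listed in replicate 1, Mir1198 had 20 counts and Mir181d 21, in each case of 5p. Mir181a-1 had 4 counts, of its 3p arm, while the 9515 counts of miR-181a-5p were listed at Mir181a-2. Why the Ctdsp2 copy was not listed in replicate 1 was not tested. Because the 22-base form is the same in both copies, the split between them is a matter of assignment and does not measure the output of each. The 3p arms, which would tell the copies apart, were not listed.

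The sequence listed at the Ctdsp2 copy was 26 bases long and carried bases that the reference does not have. It is printed with those that differ from the Mir26a-2 reference in capitals, followed by the listed hairpins of Mir26a-1 and Mir26b with the differences from RefSeq marked the same way.
miR-26a-5p listed in Ctdsp2, replicate 2: uucaaguaauccaggauaggcuUuAu
Mir26a-1 hairpin as listed, both replicates: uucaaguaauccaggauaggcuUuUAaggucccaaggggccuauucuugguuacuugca
Mir26b hairpin as listed, replicate 1: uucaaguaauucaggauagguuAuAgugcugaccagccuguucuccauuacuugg
Mir26b hairpin as listed, replicate 2: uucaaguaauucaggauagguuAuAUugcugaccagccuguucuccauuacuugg
With the reference base first and positions from the 5′ end of the 5p arm, the 26-base sequence differed from Mir26a-2 by G23U and G25A. It differed from Mir26a-1 by those 2 and by C26U, and from Mir26b at 5 positions. The Ctdsp2 copy was thus the closest of the 3, over Mir26a-1 by base 26 alone, and the first 22 bases matched both miR-26a copies. The listed Mir26a-1 hairpin also differed from its own reference at base 26, so this base does not show which copy the sequence came from. The second loci listed for let-7a-5p (106 and 82 counts) and miR-92a-3p (758 and 1545 counts) matched their RefSeq hairpins at every base of the listed mature sequence. That of miR-30c-5p in replicate 1, with 1 count, differed at 1 base. That of miR-125b-5p in replicate 2, with 25 counts, was not compared with RefSeq.

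The listed Mir26a-1 hairpin differed from RefSeq by G23U, G25U and C26A in both libraries, at bases that follow directly on the 22-base miRNA. The listed Mir26b hairpin differed by G23A and G25A in both libraries and also by G26U in replicate 2. No listed 22-base miR-26a-5p or 20-base miR-26b-5p differed from the reference within the mature part. The files give 1 sequence per locus and not the reads behind its count. Each of the changed bases was listed as A or U where the reference has G or C.

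Such differences were widespread among 5p loci. Of the 78 named 5p loci of replicate 1 that could be set against a RefSeq hairpin, 57, or 73.1%, differed within the 6 bases after the listed 5p arm, and in replicate 2 it was 62 of 85, or 72.9%. The share of loci with a difference was 39.7% and 38.8% at the first base after the arm and 2.56% and 3.53% at the sixth. Of 105 and 109 differing bases in this window, 104 and 107 were listed as A or U. In the reference, A and U made up 27.6% and 30.3% of the bases at those positions, against 58.3% and 57.5% of all bases of the window. This contrast is in part built in. A listed A or U that equals the reference base is not counted as a difference. Within the listed mature sequences, differences were found at 4 and 10 loci. The sources used here do not say how the authors built the listed hairpins, and the origin of the differing bases was not tested.

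**Figure D4:**
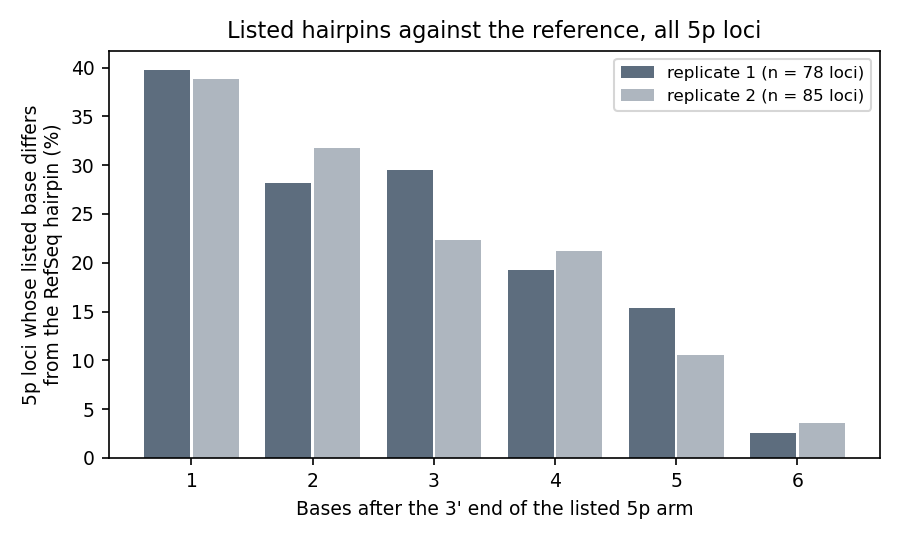
Percent of named 5p loci whose listed hairpin base differs from the RefSeq hairpin, at each of the 6 bases after the 3′ end of the listed 5p arm, with bars per library (78 loci in replicate 1, 85 in replicate 2). The share is highest at the first base, at 39.7% and 38.8%, and is 2.56% and 3.53% at the sixth.

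By the files' own annotation, the miR-26 arms took a large part of the counts of intronic miRNAs. The files placed 63 named loci of replicate 1 and 69 of replicate 2 in introns of 35 and 38 protein-coding genes. These loci held 17.2% and 17.9% of the counts of named loci, and miR-26 held 40.2% and 35.4% of these intronic counts. The files place miR-191-5p, with 15018 and 25347 counts, in an exon of a non-coding gene. Had it been counted as intronic, the miR-26 share would be 31.3% and 28.1%. Among the hosts so annotated, Ctdspl had the most counts assigned to it in both libraries, with the limit that miR-26a-5p reads cannot be told apart between Ctdspl and Ctdsp2. In replicate 1 its 19644 counts were followed by 6416 in 2010111I01Rik, which holds the miR-23b and miR-27b hairpins. In replicate 2 its 32150 were followed by 13848 in Ppargc1b, the host of miR-378a, whose protein is a coactivator of mitochondrial genes. Ctdsp1 ranked 6 with 1578 counts and 8 with 1984, and Ctdsp2, by the same assignment, ranked 33 in replicate 2.

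The miRNAs of 3 classes to which miR-26 belongs were read from the same exact binomial test, with miR-26 kept in. The counts below therefore include miR-26a-5p, called higher in replicate 2, in each list. They also include miR-26b-5p, called lower, in the lists for introns and for glucose and insulin. The first list, from general knowledge, holds 28 miRNAs of introns of protein-coding genes and differs from the files' annotation, which gives such a host for 16 of its 20 listed members in replicate 1 and 16 of 21 in replicate 2. In this list 20 were tested, 5 were higher in replicate 2, 5 were lower and 10 did not pass. This is 10 of 20 called, beside 44.3% of all tested miRNAs and 76.7% of those with at least 1000 counts summed. The list's median log2 ratio was -0.00015 beside -0.02 over all tested. Its 2 members with the highest mean shares were miR-26a-5p and miR-191-5p (log2 ratio 0.11, adjusted p = 4.36e-12 in the exact binomial test). Another list, also from general knowledge, holds 20 miRNAs taken to have several genomic copies, which was not checked for each. Of these 20, 12 were tested, 4 were higher, 4 were lower and 4 did not pass. Thus 66.7% were called, with a median of -0.03. miR-92a-3p, which had the highest mean share of them, was higher by 0.76. Of 15 miRNAs with reported roles in glucose handling or insulin action, 12 were tested, 3 were higher, 4 were lower and 5 did not pass, so that 58.3% were called, with a median of 0.04. Both shares lay between those 2 backgrounds. miR-181a-5p, next to miR-26a-5p in that list, was higher by 0.58 (adjusted p = 4.80e-249). With library totals the splits of higher and lower became 3 and 10 in the intron list, 2 and 7 in the list of several copies, and 2 and 5 in the glucose and insulin list, while over all 131 tested miRNAs it became 19 and 45.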

How the data were processed

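Small RNA was sequenced from liver in 1 group of 2 libraries. The authors deposited raw read counts per called miRNA locus, whole numbers without normalisation, with positions, sequences and host annotation, per the file headers. Per the submitters' processing notes, cutadapt 1.5, Bowtie 1.0.1 and FastQC 0.11.2 were used with build GRCm38 (mm10). Neither the program that called the loci nor its filters are given in the sources used here. Loci without a miRNA name were left out of totals. Positions counted from 0 and were raised by 1, which put the start of every miR-26 arm on its RefSeq start.

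Libraries were compared with the exact binomial test (scipy 1.17.1), with a prior count of 0.5 in log2 ratios and scaling by edgeR 4.0.16 or DESeq2 1.42.0. edgeR's quasi-likelihood test was not run, since 1 group gives no contrast. The common coefficient of variation from edgeR was 0.229, which the exact binomial test does not take in. Arms were tested in hairpins with both arms listed and at least 20 counts. The exact binomial test was checked on simulated counts with Poisson counting error alone. That check does not give its error rate in these libraries. Host introns came from GENCODE M21. Members, lists and tests were chosen with earlier results of these data known. Named miRNAs were the miR-26 arms, their seed mates, the 2 neighbours on each side in mean share, the 2 nearest log2 ratios, the 2 highest of each list, and miR-122-5p and miR-192-5p (1.37% ± 0.122, SD, n = 2). Other miRNAs, hairpins and hosts were named after their values were seen.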

Additional observations from a re-analysis of the deposited data

Results flagged for a closer look

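The 42 counts of miR-26a-5p at the Ctdsp2 copy in replicate 2 lie outside the main measurement, which used the highest locus of each name. They exceed the limit of 3 counts set for a locus with none, and their listed sequence is the 26-base form with bases that differ from the reference.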

How the results depend on the processing

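No paired analysis was possible because the series has 1 group. Of 45 values recomputed under alternatives, 43 kept their direction and call or moved by less than the spread between replicates (for miR-26b-3p, its counting interval; for the number of miRNAs that differed, a change of at most 1.5-fold). The others were the log2 ratio of miR-26a-5p, which was 0.06 at TMM and reversed to -0.10 with library totals and to -0.028 with totals without miR-92a-3p, an alternative chosen after seeing the data. Over the other settings it ranged from 0.06 to 0.11, and that of miR-26b-5p over all settings from -0.48 to -0.27. The number of miRNAs that differed between the libraries was 55 to 76, against 58. Left with 1 library, the share of miR-26a-5p was 5.98% or 6.41%, that of miR-26b-5p 0.369% or 0.515%, and the ratio of miR-26a-5p to miR-26b-5p 16.2 or 12.4. No comparison between libraries could then be made. With 2 libraries, leaving 1 out always moves a mean by less than their SD. Some other settings could not change the value they recomputed. The 43 therefore do not measure robustness as a count. Setting miR-26a-5p against the 3p arm of its own hairpin gave no value, as that arm was not listed. Depth limits miR-26b-3p most, at 1 count.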
